A study of Solanum lycopersicum with 24 samples.

Results

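The nuclear genes for light-harvesting and photosystem proteins of tomato leaves were examined as a list of 36 gene IDs, which holds chlorophyll a/b-binding proteins, photosystem I and II subunits and plastocyanin. Of these IDs, 34 were among the 34075 rows of each count table, and Solyc03g005790 and Solyc05g056070 were not among them. Reads were counted for 33 genes, all of which were tested, while Solyc02g071030 had 0 reads in each of the 24 libraries. Gene IDs could not be matched to individual subunits, so that genes are described by ID and, where IDs lie close together, as a cluster. Study tables describe Solyc02g070940, Solyc02g070970 and Solyc01g105050 as chloroplastic chlorophyll a-b binding proteins. Close IDs grouped 8 genes on chromosome 2, 3 on chromosome 3, and 2 each on chromosomes 1 and 8.

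Light-harvesting proteins bind chlorophyll in the thylakoid membrane and pass absorbed light energy to the reaction centres. Photosystem II uses this energy to split water, electrons then move through the cytochrome complex and plastocyanin to photosystem I, and ferredoxin hands them on for the formation of NADPH. Many chlorophyll a/b-binding proteins come from tandem gene copies in the nucleus, and photosystem II is known as a heat-sensitive element of the leaf.

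Leaves were excised from 6-week-old plants of cultivar Moneymaker and kept for 1 h at 25°C (control) or at 40°C (HS), on wet tissue in closed dishes. The comparison covered 4 genotypes, each with 3 libraries per condition: WT, the single mutants rs2z35 and rs2z36, and the double mutant rs2z35 36. RS2Z proteins are serine/arginine-rich splicing factors. Each single mutant is a homozygous CRISPR/Cas9 line with a frame shift, and the double mutant is a cross between them, so that each genotype other than WT rests on a single line. Whether the leaves were lit during treatment is not given in the sources used here.

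Total counts per library were 18692423 to 22517273 in control and 16853134 to 23929283 in HS. The scaling factors of TMM, edgeR's normalization for differences in RNA composition, were 1.24 to 1.33 in control and 0.737 to 0.849 in HS, and thus separated the conditions. Levels are given as CPM (counts scaled to a common library size after TMM over all libraries) and are not per transcript length, so that they compare samples and not genes. Of 2 genes described as RS2Z32-type splicing factors, Solyc05g054920 was at 193.0 ± 10.9 CPM (SD, n = 3) in WT control, 32.7 ± 1.15 in rs2z35, 203.3 ± 16.7 in rs2z36 and 31.3 ± 0.859 in rs2z35 36. The other, Solyc09g005980, was at 57.6 ± 5.68 CPM in WT control, 75.3 ± 5.49 in rs2z35, 38.7 ± 5.38 in rs2z36 and 34.2 ± 0.614 in rs2z35 36. Which RS2Z gene each ID stands for is not given in the sources used here. In bulk leaf RNA, fewer cells of a type and less RNA per cell cannot be told apart.

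The whole list took a smaller share of all reads after 1 h at 40°C. Its share of counts was 5.31 to 6.48% in the 12 control libraries (mean 5.99 ± 0.374, SD) and 2.77 to 4.48% in the 12 HS libraries (mean 3.72 ± 0.534), and the conditions did not overlap. In WT the share was 6.12, 6.25 and 5.31% in control and 2.77, 3.65 and 3.29% in HS. After TMM scaling the summed level was 41650 to 51969 CPM in control and 36264 to 59389 CPM in HS, and these ranges overlapped. The fall therefore belonged to the share of reads, and was not seen relative to the bulk of genes.

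In WT the summed level was 45864 ± 3658 CPM (SD, n = 3) in control and 42296 ± 4577 CPM in HS, and in rs2z36 it was 49282 ± 2763 and 52170 ± 3734 CPM. The sums of clusters differed from this flat total. On chromosome 3 the sum was 7119 to 8433 CPM in control and 3148 to 5512 CPM in HS, without overlap. On chromosome 8 it was 112 to 157 CPM in control and 19.0 to 84.7 CPM in HS, also without overlap, whereas the chromosome 2 sum overlapped at 8592 to 11928 and 6846 to 14628 CPM.

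**Figure D1:**
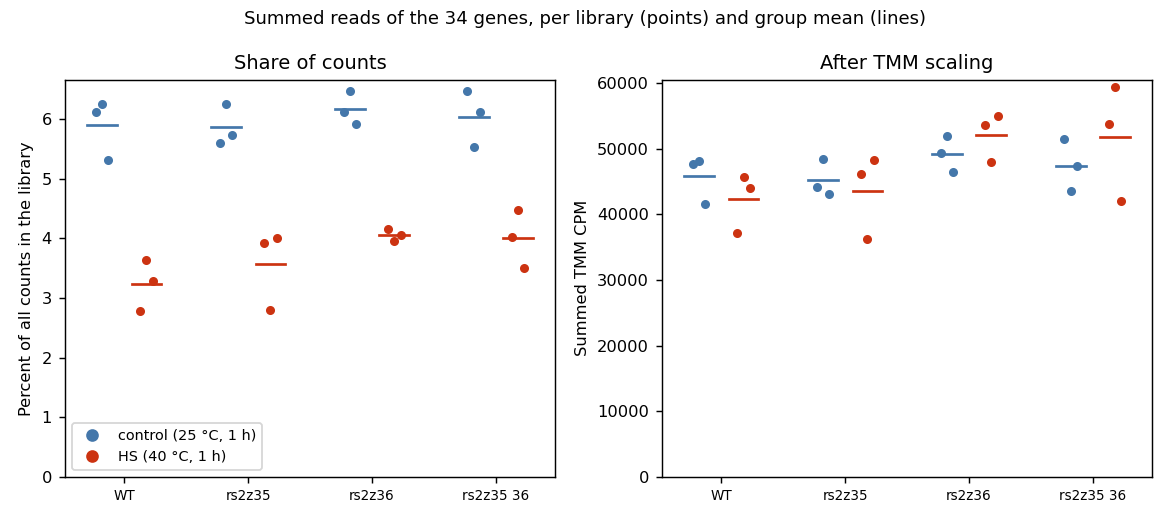
Summed reads of the 34 genes in each library, on the left as percent of all counts and on the right as TMM-scaled CPM, by genotype, with control in blue and HS in red (points, libraries; lines, means of 3). On the left all HS libraries, at 2.77 to 4.48%, lie below all control libraries, at 5.31 to 6.48%, and on the right the conditions overlap.

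To see which genes moved against the others, HS was compared with control within each genotype (edgeR quasi-likelihood test, Benjamini-Hochberg adjustment over all tested genes). DEGs were genes whose log2FC exceeded 1 in either direction at an adjusted p below 0.01. In WT, 1 of 33 genes was a higher and 4 were lower DEGs, against 13.5% and 11.6% of all 22692 genes tested. In rs2z35 there were 1 higher and 1 lower DEG (all genes, 11.7 and 11.1%), in rs2z36 1 and 3 (all genes, 11.8 and 10.9%) and in rs2z35 36 1 and 3 (all genes, 13.1 and 12%). The share of higher DEGs in the list, 3.03%, was thus below that of all genes in each genotype, while lower DEGs were near it in all but rs2z35.

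Counting changes of any size with an adjusted p below 0.01, 5 genes rose and 9 fell in WT (all genes, 24.3 and 23.5%), and 4 rose and 3 fell in rs2z35 (all genes, 20.7 and 19.3%). In rs2z36 8 rose and 5 fell (all genes, 19.3 and 18.7%), and in rs2z35 36 8 rose and 4 fell (all genes, 22.7 and 21.8%). Control and HS libraries did not overlap for 54.5, 45.5, 75.8 and 54.5% of the list in WT, rs2z35, rs2z36 and rs2z35 36. Over all genes that share was 67.6, 64.4, 62.5 and 64.9%, so that a lack of overlap was common under heat. The median log2FC of the list was 0.07, 0.11, 0.27 and 0.30 in WT, rs2z35, rs2z36 and rs2z35 36, with a median over all genes of -0.03 in WT. Over the 4 genotypes, 3 genes passed as higher in each, 2 passed as lower in each, and 11 passed in none. Genes kept a single sign in 28 of 33 cases, 20 above and 8 below 0. The shares of all genes that meet these rules over the 4 genotypes were not computed, so that these counts describe the list alone. With total counts as library size the median over all genes was -0.79 in WT and that of the list -0.69, and of all 33 genes only Solyc06g069000 and Solyc06g060340 stayed above 0 in each genotype.

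Several of these counts rested on single libraries. Without WT control replicate 2, 9 genes passed in WT in place of 14. In rs2z35, 4 passed without control replicate 3 and 12 without HS replicate 2, and the higher DEG was lost without control replicate 3, HS replicate 1 or HS replicate 3. In rs2z36, 7 passed without control replicate 2 or HS replicate 1, and 1 lower DEG was left without HS replicate 3. In rs2z35 36, 21 passed without HS replicate 3 in place of 12. That mutant had 3 higher DEGs without control replicate 1, 4 without HS replicate 3, and 1 lower DEG without HS replicate 1. The shares of all genes called in these fits are not given here, so that these counts show only how far the calls held.

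**Figure D2:**
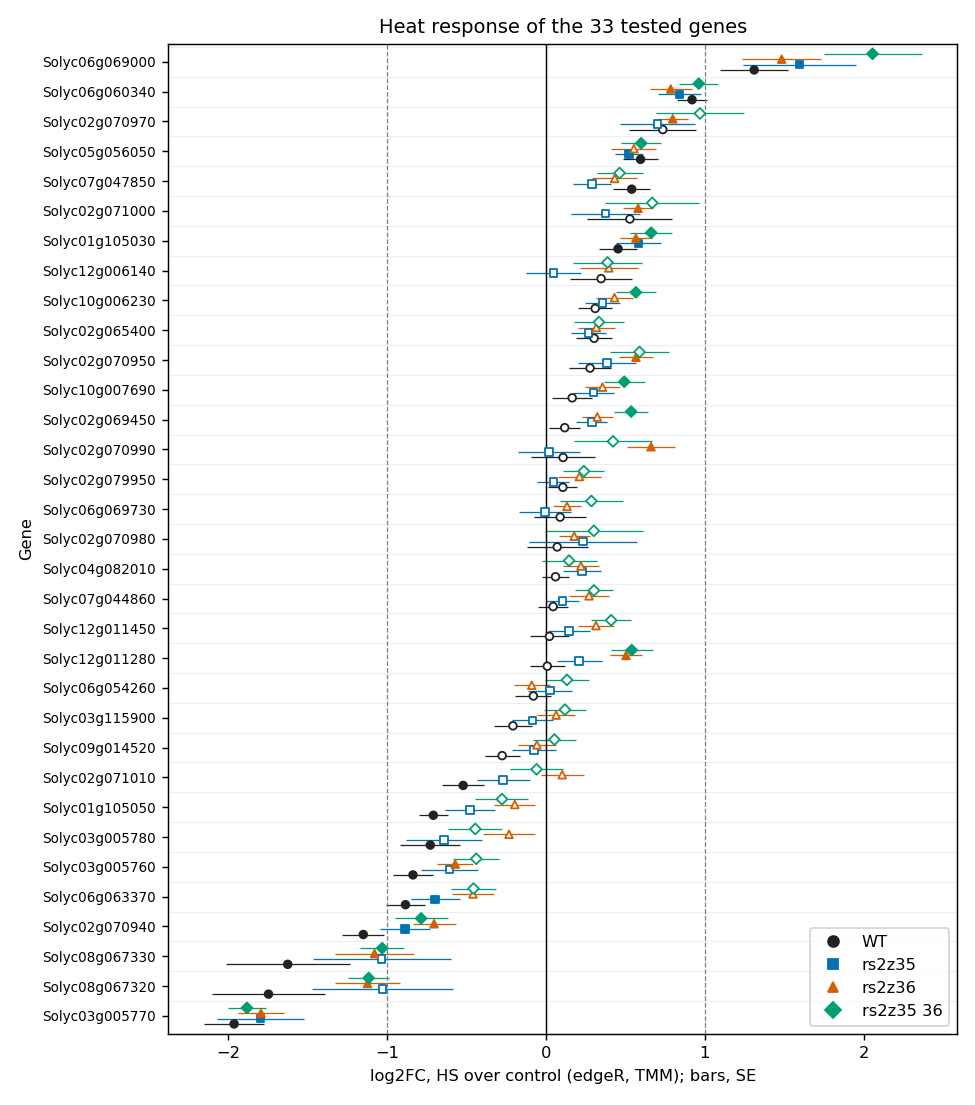
log2FC of HS over control for each of the 33 tested genes (rows, ordered by WT) in the 4 genotypes (symbols and colours), with bars for SE and dashed lines at 1 and -1. Filled symbols had an adjusted p below 0.01; Solyc03g005770 at the bottom lies between -1.96 and -1.79 in all genotypes, and most genes lie between the dashed lines.

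The chromosome 3 cluster held Solyc03g005770, the gene with the lowest log2FC of the list in each genotype, next to genes with smaller changes. Solyc03g005770 was at 1683, 1643 and 1655 CPM in WT control and at 306, 552 and 411 CPM in WT HS. In rs2z35 it was at 1904, 1923 and 1557 CPM in control and 567, 294 and 681 CPM in HS. In the same gene rs2z36 had 1629, 1845 and 1818 CPM against 547, 571 and 404 CPM, and rs2z35 36 had 1649, 1762 and 1771 CPM against 504, 488 and 399 CPM. All 12 HS libraries were below all 12 control libraries. It was the only lower DEG common to all genotypes, with log2FC of -1.96 ± 0.19 (SE) in WT, -1.80 ± 0.28 in rs2z35, -1.79 ± 0.15 in rs2z36 and -1.88 ± 0.12 in rs2z35 36 (edgeR, adjusted p = 1.83e-05, 0.000747, 1.60e-05 and 1.79e-07). Leaving out any library kept it a DEG in each genotype.

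Its neighbour Solyc03g005760, the gene with the most reads of this cluster, was at 5199.8, 5415 and 4657 CPM in WT control and at 2527, 3289 and 2672 CPM in WT HS, with no overlap. The log2FC was -0.84 ± 0.13 in WT (edgeR, adjusted p = 0.000326) and -0.57 ± 0.11 in rs2z36 (adjusted p = 0.00284). In WT it passed whichever library was left out, and in rs2z36 it was lost without control replicate 2 or any of the HS replicates, at adjusted p of up to 0.017. The rs2z36 values were 5362, 5692 and 4995 CPM in control and 3844, 3415 and 3515 CPM in HS. In rs2z35, at 4789.9, 5404 and 4947 CPM in control and 3489, 2416 and 3976 CPM in HS, the log2FC was -0.61 ± 0.18 (adjusted p = 0.0207). In rs2z35 36, at 5300.3, 4373 and 4712 CPM in control and 3417, 4087 and 2988 CPM in HS, it was -0.44 ± 0.15 (adjusted p = 0.0229). The conditions did not overlap in any genotype, as was so for most genes tested, and the change missed the threshold in rs2z35 and rs2z35 36. The third gene, Solyc03g005780, fell in WT (log2FC -0.73 ± 0.19, edgeR, adjusted p = 0.00802), a call that held in 2 of 6 fits without a library (adjusted p of up to 0.0276), and did not pass in the mutants.

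The chromosome 8 pair combined large falls with the widest spread between HS replicates. Solyc08g067320 was at 56.6, 56.4 and 71.3 CPM in WT control and at 9.97, 32.1 and 12.5 CPM in WT HS. In rs2z35 it was at 64.5, 59.2 and 53.5 CPM in control and at 37.7, 8.65 and 40.3 CPM in HS, where replicate 2 stood well below the others. The values in rs2z36 were 53.1, 51.6 and 66.0 CPM in control and 31.8, 28.9 and 17.4 CPM in HS, and in rs2z35 36 they were 55.9, 66.7 and 70.4 CPM and 24.9, 32.9 and 30.2 CPM. No HS library reached any control library of its genotype. It was a DEG in WT (log2FC -1.74 ± 0.35), rs2z36 (-1.12 ± 0.21) and rs2z35 36 (-1.11 ± 0.13) (edgeR, adjusted p = 0.00201, 0.00184 and 1.97e-05), but did not pass in rs2z35 (-1.03 ± 0.44, adjusted p = 0.0786).

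Solyc08g067330 followed its neighbour library by library, with 65.2, 69.4 and 85.4 CPM in WT control and 11.5, 43.3 and 16.0 CPM in WT HS. In rs2z35 it was at 71.5, 69.5 and 65.4 CPM in control and 45.8, 10.3 and 44.4 CPM in HS. In rs2z36 the values were 61.0, 60.4 and 78.4 CPM and 39.1, 36.8 and 18.4 CPM, and in rs2z35 36 they were 64.8, 77.3 and 81.3 CPM and 30.7, 33.6 and 43.5 CPM. The low HS libraries were the same as for Solyc08g067320, and groups again did not overlap. Its log2FC of -1.62 ± 0.39 in WT (edgeR, adjusted p = 0.0054) passed in only 1 of the 6 fits that left out a library, with adjusted p between 3.02e-05 and 0.0227. It was also a DEG in rs2z36 (-1.08 ± 0.25, adjusted p = 0.00629), passing in 2 of 6 such fits, and in rs2z35 36 (-1.03 ± 0.14, adjusted p = 7.23e-05), passing in all 6 but with a log2FC below -1 in 3 of them. In rs2z35 the log2FC was -1.03 ± 0.43 (edgeR, adjusted p = 0.0727). The handling of reads with several matches is not given in the sources used here, so that the division of reads between these neighbours is uncertain.

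On chromosome 2 the response was divided: Solyc02g070940 fell in each genotype, while the genes next to it did not. Solyc02g070940, described as a chlorophyll a-b binding protein and singled out after its values were seen, was at 2081, 2294 and 1880.3 CPM in WT control and 869, 1102 and 829 CPM in WT HS. In rs2z35 it was at 2252, 2334 and 2079.8 CPM in control and 1373, 927 and 1281 CPM in HS, and in rs2z36 at 2305, 2448 and 2289 CPM and 1567, 1162 and 1582 CPM. In rs2z35 36 it was at 2866, 2247 and 2580.5 CPM in control and 1230.2, 1852 and 1326 CPM in HS. Control and HS libraries did not overlap in any genotype. The log2FC was -1.15 ± 0.13 in WT, a DEG, -0.89 ± 0.16 in rs2z35, -0.70 ± 0.14 in rs2z36 and -0.79 ± 0.17 in rs2z35 36 (edgeR, adjusted p = 5.77e-05, 0.00152, 0.0024 and 0.00189). Without rs2z36 control replicate 2 or HS replicate 1, and without rs2z35 36 HS replicate 1 or 3, the change no longer passed in those mutants, at adjusted p of up to 0.0117 and 0.0135.

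Solyc02g070970, which carries the same description, was at 1089, 1139.8 and 879 CPM in WT control and 1147, 1808 and 2179 CPM in WT HS. In rs2z36 it was at 1016, 1037 and 1044 CPM in control and 1764, 1863 and 1738 CPM in HS, and the replicates of each group lay close together. In rs2z35, with 913, 1133 and 898 CPM in control and 1611, 1036 and 2113 CPM in HS, replicate 2 of HS lay within the control range. In rs2z35 36 HS replicates 1 and 2, at 2569.9 and 2321 CPM, stood above replicate 3 at 993 CPM, which lay within the control range of 847 to 1128 CPM. It rose in rs2z36 (log2FC 0.80 ± 0.10, edgeR, adjusted p = 0.000158) and did not pass in WT (0.73 ± 0.21, adjusted p = 0.013), rs2z35 (0.70 ± 0.24, adjusted p = 0.0327) or rs2z35 36 (0.97 ± 0.28, adjusted p = 0.0112). With total counts as library size these log2FC lay between -0.03 and 0.22.

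Solyc02g071010, the chromosome 2 gene with the most reads, was at 2740.4, 2768 and 2367 CPM in WT control and 1567, 2146 and 1734 CPM in WT HS. In rs2z35 its values were 2149.6, 2772 and 2318 CPM in control and 2302, 1572 and 2098 CPM in HS. In rs2z36 they were 2633, 2805 and 2542 CPM and 2792, 2413 and 3334 CPM, and in rs2z35 36 they were 3153, 2273 and 2684 CPM and 2579, 3065 and 2052 CPM. The WT groups did not overlap, while those of the mutants did. In WT the log2FC was -0.52 ± 0.13 (edgeR, adjusted p = 0.00732), and it passed in 2 of the 6 fits that left out a library, those without WT control replicate 3 or WT HS replicate 2. The log2FC in the mutants was -0.27 ± 0.17, 0.10 ± 0.14 and -0.06 ± 0.17, and did not pass. The difference of rs2z36 from WT in this response was 0.63 ± 0.24 on the log2 scale and did not pass (interaction, edgeR, adjusted p = 0.471).

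The chromosome 1 pair moved apart. Solyc01g105030 was at 1216, 1239 and 974 CPM in WT control and 1385, 1651 and 1627 CPM in WT HS, while in rs2z35 it was at 1097, 1187 and 1059.7 CPM and 1721, 1338 and 1917 CPM. In rs2z36 it was at 1117, 1131 and 1087 CPM in control and 1735, 1648 and 1539 CPM in HS, and in rs2z35 36 at 1213, 1005 and 1165 CPM and 1809.6, 1971 and 1512 CPM. It was higher in HS without overlap in each genotype and rose in all of them, with log2FC of 0.45 ± 0.12, 0.58 ± 0.14, 0.57 ± 0.10 and 0.66 ± 0.13 (edgeR, adjusted p = 0.00905, 0.00848, 0.00136 and 0.00125). In WT this held in 1 of 6 fits without a library and in rs2z35 also in 1 of 6, at adjusted p of up to 0.0356 and 0.0343. With total counts the log2FC was negative in every genotype, from -0.31 in WT to -0.07 in rs2z35 36.

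Solyc01g105050, a described chlorophyll a-b binding protein that was also singled out after its values were seen, was at 683, 708 and 627 CPM in WT control and 385, 441 and 399.9 CPM in WT HS. It fell in WT without overlap (log2FC -0.71 ± 0.09, edgeR, adjusted p = 0.000129). In rs2z36, at 669, 876 and 728 CPM in control and 658, 587 and 733 CPM in HS, the groups overlapped and the log2FC was -0.20 ± 0.13 (adjusted p = 0.233). The log2FC was -0.48 ± 0.16 in rs2z35 and -0.28 ± 0.17 in rs2z35 36, and neither passed (adjusted p = 0.0298 and 0.178).

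Genes outside these clusters moved both ways. Solyc06g063370, named after its values were seen, went from 3230 ± 272 CPM (SD, n = 3) in WT control to 1738 ± 246 CPM in WT HS. It was lower in HS without overlap in all 4 genotypes. Its log2FC lay between -0.88 and -0.46, with an adjusted p below 0.01 in 2 genotypes (edgeR). Solyc06g060340 rose in each genotype. It was at 244, 265 and 227 CPM in WT control and 507, 441 and 436 CPM in WT HS. In rs2z35 it was at 283, 272 and 244 CPM and 382, 512 and 529 CPM, in rs2z36 at 298, 323 and 264 CPM and 559.8, 421 and 540.4 CPM, and in rs2z35 36 at 304, 256 and 282 CPM and 549.8, 603 and 466 CPM. All HS libraries were above all control libraries. The log2FC was 0.92 ± 0.09, 0.84 ± 0.14, 0.79 ± 0.13 and 0.96 ± 0.12 in WT, rs2z35, rs2z36 and rs2z35 36 (edgeR, adjusted p = 2.43e-05, 0.00103, 0.00113 and 4.58e-05), and it passed in every fit that left out a library. With total counts as library size it was between 0.09 and 0.23.

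Solyc05g056050 was at 606, 576 and 466 CPM in WT control and 792, 872 and 808 CPM in WT HS, and in rs2z35 at 569, 594 and 569 CPM and 825, 792 and 856 CPM. In rs2z36 it was at 715, 708 and 556 CPM in control and 963, 836 and 1098 CPM in HS, and in rs2z35 36 at 725, 643 and 635 CPM and 1049.9, 1100.4 and 847 CPM. Groups did not overlap in any genotype. The gene rose in WT, rs2z35 and rs2z35 36 by log2FC of 0.60 ± 0.11, 0.52 ± 0.09 and 0.60 ± 0.13 (edgeR, adjusted p = 0.00124, 0.00137 and 0.0017) and narrowly missed the threshold in rs2z36 at 0.55 ± 0.14 (adjusted p = 0.0101). Without rs2z35 36 control replicate 3 it did not pass in that mutant (adjusted p = 0.0109). With total counts the log2FC was between -0.16 and -0.14, which reverses its direction.

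Solyc10g006230, the gene with the most reads outside the clusters, was at 3650.5, 3596 and 3122 CPM in WT control and 3979, 4141 and 4649 CPM in WT HS. In rs2z35 it was at 3036, 3060.2 and 3078 CPM and 4238, 3893 and 3536 CPM, and in rs2z36 at 3505, 3627 and 3186 CPM and 4905, 4239 and 4728 CPM. In rs2z35 36 it was at 3568, 2997 and 3209 CPM in control and 4473, 5195 and 4626 CPM in HS. Each genotype was higher in HS without overlap. The log2FC was 0.57 ± 0.13 in rs2z35 36 (edgeR, adjusted p = 0.00264), which no longer passed without control replicate 2, control replicate 3 or HS replicate 2 of that mutant. In WT, rs2z35 and rs2z36 it was 0.31 ± 0.11, 0.36 ± 0.11 and 0.43 ± 0.12 and did not pass, and under total counts it was negative in all genotypes.

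The only higher DEG was Solyc06g069000, named here after its values were seen, which had 13 to 44 reads per control library. It was at 0.871, 1.11 and 0.893 CPM in WT control and 2.37, 2.41 and 2.33 CPM in WT HS, and at 0.518, 0.906 and 1.18 CPM and 3.36, 4.56 and 2.86 CPM in rs2z35 36. Groups did not overlap in any genotype, at levels that were low throughout. The log2FC was 1.31 ± 0.21 in WT, 1.59 ± 0.35 in rs2z35, 1.48 ± 0.25 in rs2z36 and 2.05 ± 0.31 in rs2z35 36 (edgeR, adjusted p = 0.000555, 0.0051, 0.00113 and 0.000165).

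**Figure D3:**
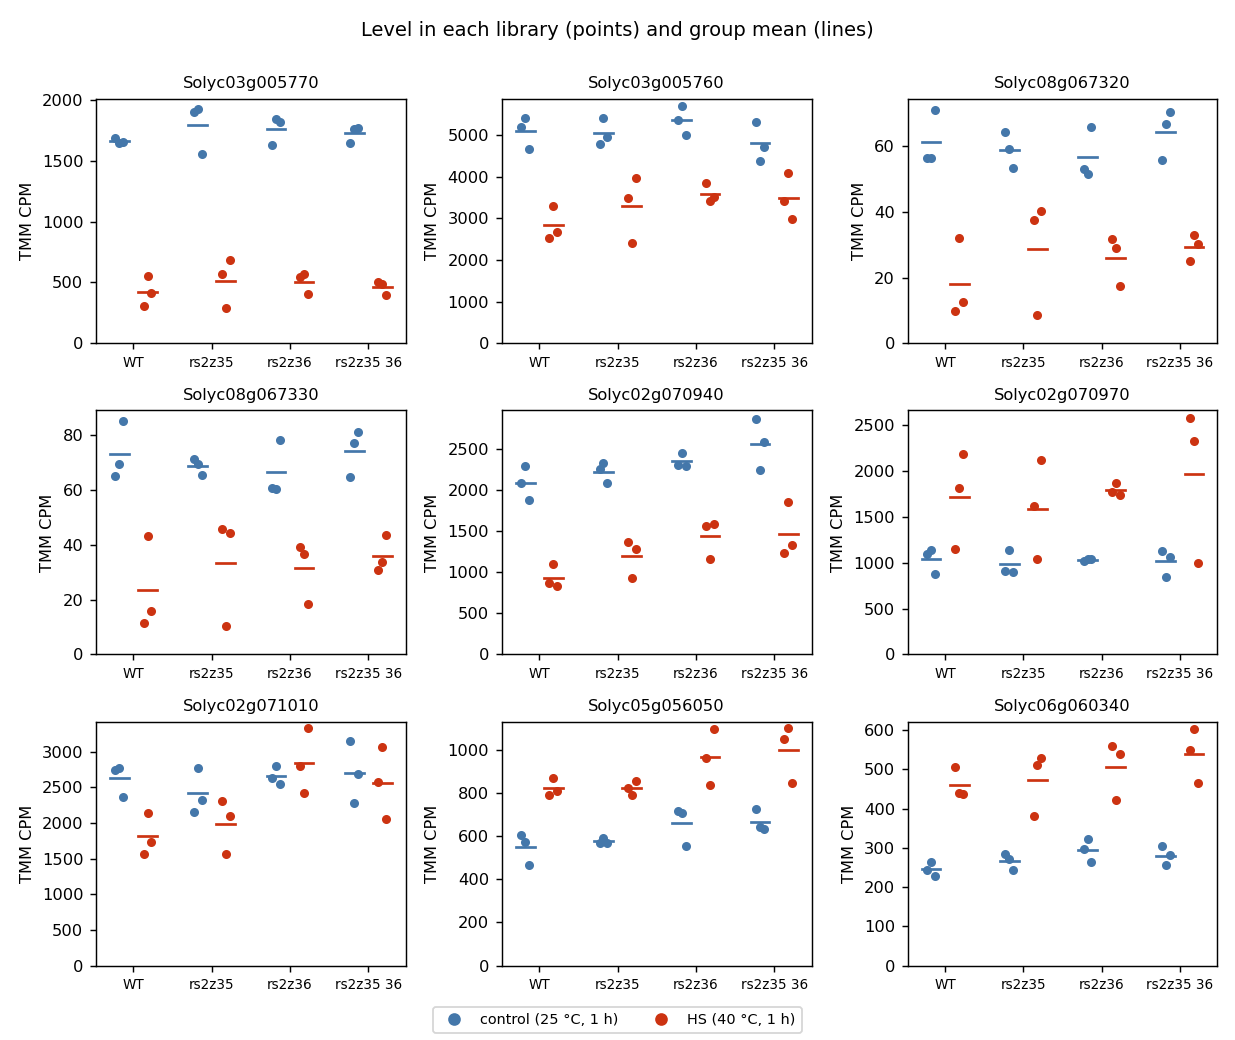
TMM-scaled CPM of 9 genes in each library by genotype, with control in blue and HS in red (points, libraries; lines, means of 3; every axis starts at 0). Solyc03g005770 lies between 1557 and 1923 CPM in control and between 294 and 681 CPM in HS in all genotypes, while the chromosome 8 pair and Solyc02g070970 spread widely within HS.

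Because a ratio of counts between genes of the same library does not depend on scaling, neighbours within clusters were also set against each other. Such ratios do depend on how reads that match several neighbours were divided, which is not given in the sources used here for any cluster. For 11 ratios, chosen after the values were seen, the 12 control and 12 HS libraries were compared as a description. A permutation test within genotypes was also run, but its p-values are not given, because ratios chosen from these values cannot be tested on them. Control and HS did not overlap in 6 of 11. The number of Solyc03g005760 reads per Solyc03g005770 read was 2.48 to 3.30 in control and 5.84 to 8.69 in HS, and that of Solyc03g005770 per Solyc03g005780 was 1.37 to 2.84 and 0.495 to 0.853. Within that cluster, Solyc03g005770 therefore lost reads relative to both neighbours in all 12 HS libraries.

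On chromosome 2, Solyc02g070940 had 1.33 to 1.59 reads per Solyc02g070950 read in control and 0.437 to 0.756 in HS, so that the order of their counts turned. Against Solyc02g070970 its ratio was 1.91 to 2.65 in control and 0.381 to 1.34 in HS. The ratio of Solyc02g070970 to Solyc02g070980 was 0.963 to 1.35 in control and 1.38 to 2.29 in HS, and that of Solyc01g105030 to Solyc01g105050 was 1.29 to 1.78 and 2.10 to 4.07. The ratio of the chromosome 8 pair overlapped, at 0.813 to 0.901 in control and 0.693 to 0.979 in HS.

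**Figure D4:**
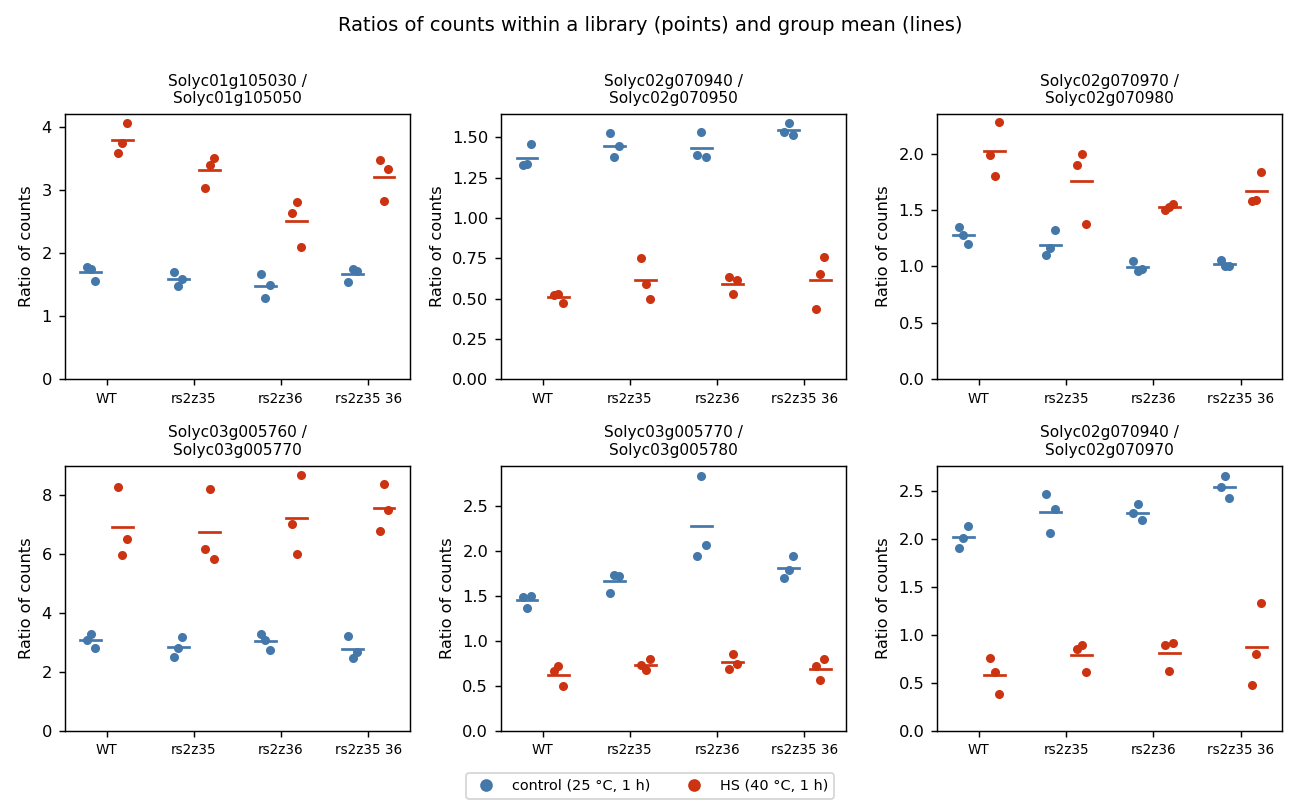
Ratio of counts between the named genes in each library for the 6 ratios without overlap, by genotype, with control in blue and HS in red (points, libraries; lines, means of 3; axes start at 0). Solyc03g005760 over Solyc03g005770 lies between 2.48 and 3.30 in all control libraries and between 5.84 and 8.69 in all HS libraries.

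Members also differed more between replicates in HS than in control. The 32 members whose mean was 10 CPM or more were used for this. Their median SD of log2 CPM within groups was 0.14 in control and 0.23 in HS, and it was larger in HS for 29 of 32, or 90.6%. Over all 11426 genes at that level, the medians were 0.12 and 0.14, and 58.1% of genes had the larger SD in HS. Members share libraries and vary together, so that the 29 are not independent observations. The SD of the summed level in WT, rs2z35, rs2z36 and rs2z35 36 was 3658, 2836, 2763 and 4014 CPM in control. In HS it was 4577, 6422, 3734 and 8804 CPM. The lowest HS sums were in rs2z35 replicate 2 (36264 CPM), WT replicate 1 (37104 CPM) and rs2z35 36 replicate 3 (42119 CPM). The widest HS spread was in Solyc08g067330 and Solyc08g067320, with SD of 0.85 and 0.81, followed by Solyc02g070980 at 0.63 and Solyc02g071000 at 0.58. The authors adjusted HS counts for a batch and not the control counts, and the part of that step in this spread was not tested.

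To ask whether loss of RS2Z proteins changed these genes, each mutant was compared with WT within control and within HS. All 3 mutants share the same WT libraries. By edgeR, 0 of 33 members had an adjusted p below 0.01 in any of the 6 comparisons, so that none was a DEG. Over all genes that share was 0.0637, 0.225 and 0.357% for rs2z35, rs2z36 and rs2z35 36 in control, and 0.0302, 0.255 and 0.358% in HS. At an unadjusted p below 0.05 there were 1, 7 and 4 members in control (all genes, 10.5, 14.1 and 17%) and 1, 14 and 13 in HS (all genes, 8.56, 15.2 and 14.2%). In control these counts ran from 1 to 2, 1 to 11 and 0 to 5 when single libraries were left out, with 1 in rs2z36 without WT control replicate 3 or rs2z36 control replicate 2. In HS they ran from 0 to 10, 8 to 17 and 5 to 19. DESeq2 gave an adjusted p below 0.01 for 0, 1 and 0 members in control (all genes, 0.96, 1.2 and 2.04%) and 0, 2 and 1 in HS (all genes, 0.16, 1.19 and 1.27%).

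In control the median log2FC of the list was -0.01 in rs2z35, 0.13 in rs2z36 and 0.04 in rs2z35 36, and all-gene medians were 0.00. The gene with the largest difference was Solyc03g005780, which was at 1133, 1200.2 and 1104 CPM in WT and at 839, 650.3 and 878 CPM in rs2z36. These groups did not overlap, and the log2FC was -0.53 ± 0.13 (edgeR, adjusted p = 0.0802; DESeq2, adjusted p = 0.00567). In HS the same comparison gave -0.02 ± 0.28.

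In HS most members were above WT in each mutant, by amounts that did not pass for any gene by edgeR. The median log2FC was 0.11 in rs2z35, 0.36 in rs2z36 and 0.32 in rs2z35 36, with all-gene medians of 0.01, 0.00 and 0.00. In rs2z35, 25 of 33 genes had a log2FC above 0 (all genes, 52.6%), and 1 was higher without overlap (all genes, 7.18%). In rs2z36, 32 of 33 genes had a log2FC above 0 (all genes, 49.9%), and 16 were higher without overlap (all genes, 10.3%). In rs2z35 36 these counts were 33 (all genes, 50%) and 9 (all genes, 9.75%). Members are counted in the same libraries and vary together, so that these counts are not independent observations. These values rested in part on single libraries. Over the 6 fits that each left out 1 library, the median ran from -0.01 to 0.25 in rs2z35, from 0.27 to 0.46 in rs2z36 and from 0.21 to 0.43 in rs2z35 36. The rs2z35 median was -0.01 without HS replicate 3 and 0.25 without HS replicate 2, with 16 and 27 genes above 0. In rs2z35 36 it was 0.21 without HS replicate 2, with 29 genes above 0 and 5 at an unadjusted p below 0.05. Without WT HS replicate 1, the WT library with the lowest summed level, it was 0.04, 0.27 and 0.26 in rs2z35, rs2z36 and rs2z35 36, with 18, 28 and 27 genes above 0. The number of genes with an unadjusted p below 0.05 then was 0, 8 and 8, and without rs2z36 HS replicate 3 it was also 8 in rs2z36.

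Solyc12g011280 was at 165, 204 and 164 CPM in WT HS and at 279, 247 and 296 CPM in rs2z36 HS, with no overlap. Its log2FC was 0.64 ± 0.15, or an interval of 0.35 to 0.93 at 1.96 SE (edgeR, adjusted p = 0.0543; DESeq2, adjusted p = 0.00475). For Solyc01g105050 in the same comparison the log2FC was 0.70 ± 0.17, from 0.37 to 1.04 (edgeR, adjusted p = 0.0634; DESeq2, adjusted p = 0.00731). Solyc02g069450 was at 341, 369 and 338 CPM in WT HS and at 428, 486 and 438 CPM in rs2z35 36 HS, again without overlap, with a log2FC of 0.38 ± 0.09 (edgeR, adjusted p = 0.0672; DESeq2, adjusted p = 0.00816). These genes were named because they were the ones that DESeq2 called.

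**Figure D5:**
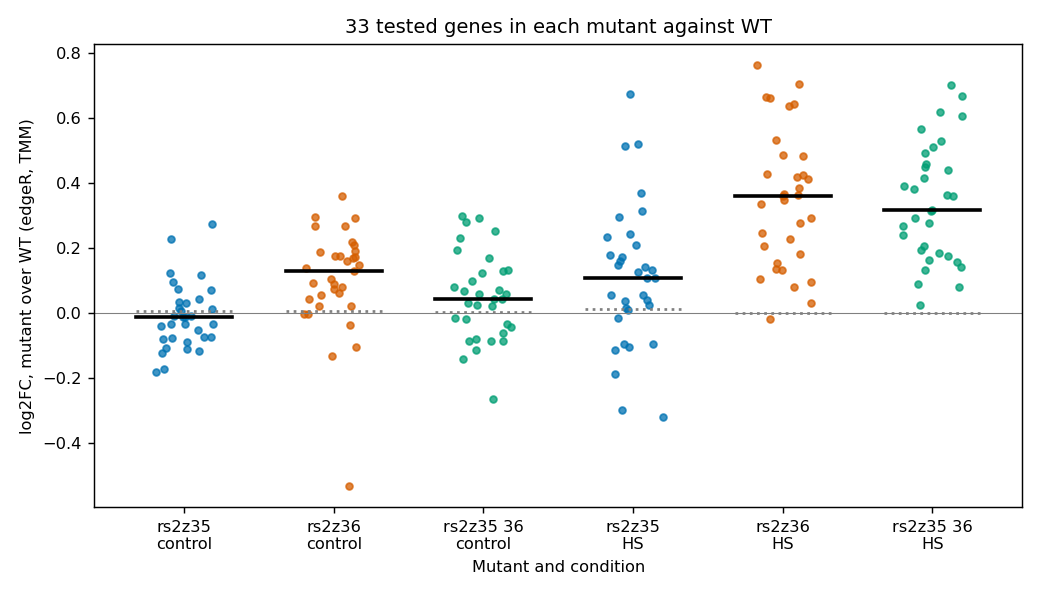
log2FC of each mutant over WT for the 33 tested genes (points), in control on the left and HS on the right, with the list's median as a black line and the median of all tested genes as a dotted grey line. In HS the medians of rs2z36 and rs2z35 36 are 0.36 and 0.32, while those of all genes are near 0.

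The heat response itself was then compared between each mutant and WT. With an adjusted p below 0.01 there were 0 members in each mutant by edgeR (all genes, 0.0122, 0.114 and 0.0447% in rs2z35, rs2z36 and rs2z35 36) and 0 by DESeq2 (all genes, 0.22, 0.236 and 0.212%). At an unadjusted p below 0.05, edgeR gave 0, 4 and 3 members (all genes, 7.4, 8.75 and 8.55%). The median difference of the list was 0.12, 0.20 and 0.28, with 23, 29 and 31 of 33 genes above 0 (all genes, 49.8, 47.7 and 48.7%). Leaving out 1 library moved the median to between 0.03 (without rs2z35 HS replicate 3) and 0.25 (without rs2z35 HS replicate 2) in rs2z35, and to between 0.16 (without rs2z35 36 HS replicate 2) and 0.43 (without rs2z35 36 HS replicate 3) in rs2z35 36. In rs2z36 it ran from 0.16 to 0.28. The genes above 0 then numbered 18 to 28, 22 to 31 and 26 to 33, and those with an unadjusted p below 0.05 numbered 0 to 3, 1 to 8 and 2 to 12. The smallest adjusted p was 0.301, for Solyc02g069450 in rs2z35 36 at 0.41 ± 0.13 (edgeR). A different heat response of these genes in a mutant was thus not detected with 3 libraries per group.

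Summed trichome terpene synthesis genes were lower in rs2z36 and rs2z35 36 than in WT, without overlap, while rs2z35 overlapped WT in both conditions. These genes, Solyc08g005670, Solyc08g005677 and Solyc08g005680, have close IDs on chromosome 8, so that they are not independent markers of a cell type. In WT heat they did not move together, with log2FC of -0.35 ± 0.17, -0.68 ± 0.17 and 1.78 ± 0.20 (SE). Whether trichome cells were fewer was not tested. The summed level of 3 trichome terpene synthesis genes was 41.8 to 55.8 CPM in WT HS, 41.6 to 66.2 in rs2z35 HS, 0.295 to 1.06 in rs2z36 HS and 10.9 to 22.3 in rs2z35 36 HS. In control the ranges were 44.8 to 68.4, 56.7 to 76.8, 0.208 to 0.735 and 16.3 to 33.6 CPM for WT and these mutants. Their part in the differences of the photosystem genes was not tested.

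Few other genes of these pathways could be named, since only described genes of the study tables were usable, and those tables favour genes that changed in these samples. Of 4 further photosystem genes, 2 rose and 1 fell in WT, where 24.3 and 23.5% of all genes did. Both that rose were below 1 CPM: Solyc00g181250, described as a CP43 reaction center protein, went from 0.0238 to 0.573 CPM in WT, and Solyc01g008510, described as a 5 kDa photosystem II protein, from 0.0126 to 0.417 CPM, each with control libraries at 0 reads. Solyc02g090030, described as the 33 kDa oxygen-evolving protein that stabilises the manganese cluster of photosystem II, fell from 931 to 358 CPM (log2FC -1.37 ± 0.14, edgeR, adjusted p = 2.33e-05), and its control and HS libraries did not overlap in WT. The only described electron transport gene, Solyc02g062130 for a ferredoxin--NADP reductase, the enzyme that passes electrons from ferredoxin to NADP, rose from 5.34 to 87.3 CPM (log2FC 4.04 ± 0.12, adjusted p = 5.01e-09).

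Of 4 described chlorophyll synthesis genes, 3 rose and 1 fell in WT, beside the same shares of all genes. Of those that rose, Solyc05g024190 (0.150 to 0.902 CPM) and Solyc01g089840 (0.0238 to 0.367 CPM) were below 1 CPM, and Solyc01g086650 went from 17.7 to 26.6 CPM (log2FC 0.59 ± 0.10, edgeR, adjusted p = 0.000884). Solyc01g088310, for a geranylgeranyl diphosphate reductase, which supplies the phytol tail of chlorophyll, fell from 16.6 to 7.46 CPM (log2FC -1.15 ± 0.10, edgeR, adjusted p = 9.60e-06). None of 3 photosystem assembly and repair genes passed by edgeR. The only described mesophyll marker, Solyc09g011080 for Rubisco activase, the chaperone that reactivates Rubisco, rose from 11.4 to 1293 CPM in WT (log2FC 6.83 ± 0.17, adjusted p = 1.49e-09), so that it could not serve as a stable marker of leaf cells.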

How the data were processed

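RNA-seq of 24 leaf libraries (4 genotypes, 2 conditions, 3 biological replicates) was used, with groups and replicate numbers from the sample labels. The authors deposited counts of reads per coding gene, from non-directional polyA libraries mapped with STAR and counted with HTSeq 0.9.1. HS counts had been adjusted by the authors with ComBat-Seq for a batch that is not named. Antisense reads cannot be told apart without strand. Counts were analysed with edgeR 4.0.16 in R 4.3.3 (read sum of at least 10, TMM, quasi-likelihood test, Benjamini-Hochberg adjustment over all tested genes), in the 6 libraries of a genotype for heat, the 12 of a condition for mutants, and all 24 for interactions, and the functions were tested on simulated data. SE is the log2FC divided by the root of the F statistic. Alternatives were DESeq2 1.42.0, other scaling and filters, other sets of libraries, a replicate block and leaving out libraries. Replicates differed beyond sampling noise (chi-square per degree of freedom 4.75 to 28.4 in 24 pairs).

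Members, lists and tests were chosen with earlier results of these data known. Values in every sample are given for the member of each cluster, and of the rest, with the most reads. They are also given for the 3 largest rises and falls in WT with a mean of at least 10 CPM, and any DEG between mutants and WT. Pathway genes were to be named if DEGs at that level without overlap. The text also names described genes that fell short of this rule, being below 1 CPM in WT or not DEGs. Same-numbered replicates deviated together in all 3 pairs for rs2z36 against WT in control only (r of 0.26 to 0.58 across 11426 genes, which are not independent replicates). There the replicate block changed no call among members.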

Additional observations from a re-analysis of the deposited data

How the results depend on the processing

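Without TMM, total counts as library size gave 10, 8, 6 and 8 lower DEGs in WT, rs2z35, rs2z36 and rs2z35 36, 0 higher DEGs in WT, rs2z35 and rs2z36, 22, 15 and 21 genes with an adjusted p below 0.01 in those 3 genotypes, and medians of -0.69, -0.57, -0.42 and -0.43. It reversed Solyc02g070970 in WT (-0.0263), Solyc02g071010 in rs2z36 (-0.59), and, in WT, rs2z35, rs2z36 and rs2z35 36, Solyc01g105030 (-0.31, -0.0861, -0.12 and -0.0724), Solyc05g056050 (-0.16, -0.15, -0.14 and -0.14) and Solyc10g006230 (-0.45, -0.32, -0.26 and -0.16). As log2 share of all counts, HS over control, the summed level was -0.87, -0.73, -0.60 and -0.60 for all members, -0.64, -0.43, -0.38 and -0.36 for the chromosome 1 pair, -0.83, -0.69, -0.45 and -0.56 for chromosome 2, -1.77, -1.52, -1.42 and -1.41 for chromosome 3, and -1.84 and -1.80 for the chromosome 8 pair in rs2z36 and rs2z35 36. These shifts follow from the scaling itself. Under total counts the medians over all genes were -0.79, -0.70, -0.72 and -0.76 in WT, rs2z35, rs2z36 and rs2z35 36. The shares of all genes called in that setting are not given here, so that the counts of members cannot be set against them.

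With a replicate block, which the numbers warrant only for rs2z36 against WT in control, the heat comparison gave 0 higher DEGs in rs2z35 and 8 genes with an adjusted p below 0.01 in rs2z36. One fit of all 24 libraries left 1 lower DEG each in rs2z36 and rs2z35 36. DESeq2 gave 1, 2 and 1 genes with an adjusted p below 0.01 for rs2z36 in control, rs2z36 in HS and rs2z35 36 in HS. The cause was not tested.

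Leaving out single libraries gave 9 to 14, 4 to 12, 7 to 14 and 9 to 21 genes with an adjusted p below 0.01 in WT, rs2z35, rs2z36 and rs2z35 36, with 0 to 1 higher DEGs in rs2z35, 1 to 3 lower in rs2z36, and 1 to 4 higher and 1 to 3 lower in rs2z35 36. Shares of all genes called in these fits are not given here. The rs2z36 median in control ran from 0.0528 to 0.173 and its chromosome 1 sum from 0.27 to 0.35. With 3 libraries per group, the median SE of a member's log2FC was 0.12 in WT heat and the largest was 0.39. In rs2z35 heat the median SE was 0.15. These values bear on the size of change that could be detected in those heat comparisons, and not in the mutant comparisons or the interactions.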
